A study of Mus musculus with 12 samples.

Results

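Tumours of mice given the doxorubicin prodrug DPD by itself were compared with tumours of mice given PBS, across all genes. The comparison used 4 of the 12 libraries in the count table, namely the 2 labelled DPD and the 2 labelled Ctrl. Every mouse was of the strain C57BL/6J, 8 weeks old when inoculated, and carried a tumour of MC38 cells, a mouse colon carcinoma line, under the skin of the left flank. DPD mice received 14 µg of DPD (0.56 mg/kg) into the peritoneal cavity every 3 days from day 9, and Ctrl mice received PBS on the same schedule. All tumours were taken on day 20. DOX mice received 14 µg of doxorubicin (0.56 mg/kg) on that schedule and by that route, and are used below as the parent drug. RP mice received 20 µg of Ru-PD-L1, an antibody against the checkpoint ligand PD-L1 that carries a catalyst, and R+D mice received Ru-PD-L1 followed 6 hours later by 14 µg of DPD injected beside the tumour. R+X mice, used only in the shared estimate of spread and in statements over all 12 libraries, received Ru-PD-L1 followed 6 hours later by 14 µg of doxorubicin beside the tumour. DPD was read as the DOX prodrug of the series title, RP as the conjugate Ru-PD-L1, R+D as the conjugate followed by DPD, and R+X as the conjugate followed by doxorubicin. Each group was 2 libraries, named replicate 1 and replicate 2 here in the order of listing. The labels do not say that the libraries came from separate mice, and the spread behind each p-value may be technical.

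Doxorubicin is an anthracycline that inserts between DNA bases and holds topoisomerase II on the breaks it makes, which activates the p53 response in cells with working p53. Dying tumour cells and damaged DNA are also known to induce interferons, secreted proteins that switch on antiviral and antigen-presenting genes in neighbouring cells. A prodrug is a masked form of a drug that gains its activity once the mask is removed, and in the title of this series the prodrug is paired with the catalyst carried by the antibody. The question here was what the prodrug did to tumour RNA where no catalyst was given.

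No gene passed the threshold. In the edgeR quasi-likelihood test of DPD against Ctrl, 0 of 19525 genes tested (0%) had an adjusted p under 0.05, the smallest adjusted p was 0.119 (Pakap) and the next was 0.725. At an unadjusted p under 0.05 there were 510 genes with a higher level in DPD tumours (2.61% of the genes tested) and 274 with a lower level (1.4%). Together these were 784 genes (4.02%). The 2 counts depended on the libraries fitted, and without DOX replicate 1, which is outside the contrast, they were 1209 and 792. DESeq2 passed 2 genes as higher, Pakap and Elk4, and 2 as lower. With 2 libraries against 2, an exact permutation test of a single gene cannot go below a two-sided p of 0.333, so every p here comes from the fit over all genes.

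By correlation, the libraries of a group differed from each other about as much as from libraries of the other group. Between the DPD libraries 2195 genes differed by more than 2-fold, and between the Ctrl libraries 2205 did. The fitted difference between the groups passed 2-fold for 1210 genes in the higher direction and 592 in the lower. Differences between single libraries used log2 CPM with a prior count of 2, while the fit joins 2 libraries a group. The counts are therefore not like for like. DPD replicate 1 correlated best with Ctrl replicate 1 (Pearson r = 0.9857 across genes, log2 CPM), above its own group mate (0.9763). Ctrl replicates 1 and 2 had r = 0.9782, and the lowest value among the 4 libraries was that of DPD replicate 2 with Ctrl replicate 2 (0.9642). These are correlations across genes, which are not independent replicates. Totals were 55243633 and 48579061 counts in DPD libraries, against 51719272 and 47748895 counts in Ctrl libraries.

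Transcript length moved with these differences. Among the 16252 tested genes with an annotated length, the median log2 difference of DPD minus Ctrl was -0.25 in the shortest of 5 bins and 0.28 in the longest. The same slope lay between the DPD libraries, where replicate 2 minus replicate 1 had medians of -0.30 and 0.31. The opposite slope lay between the Ctrl libraries, where replicate 2 minus replicate 1 had medians of 0.31 and -0.29. DPD replicate 1 minus Ctrl replicate 1 was nearly flat, with medians of 0.05 and -0.02. DPD replicate 2 and Ctrl replicate 2 therefore sat at opposite ends of the gradient, and medians with the length trend taken away are given below for the lists described whose median moved by more than the spread between replicates, and for some others.

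**Figure D1:**
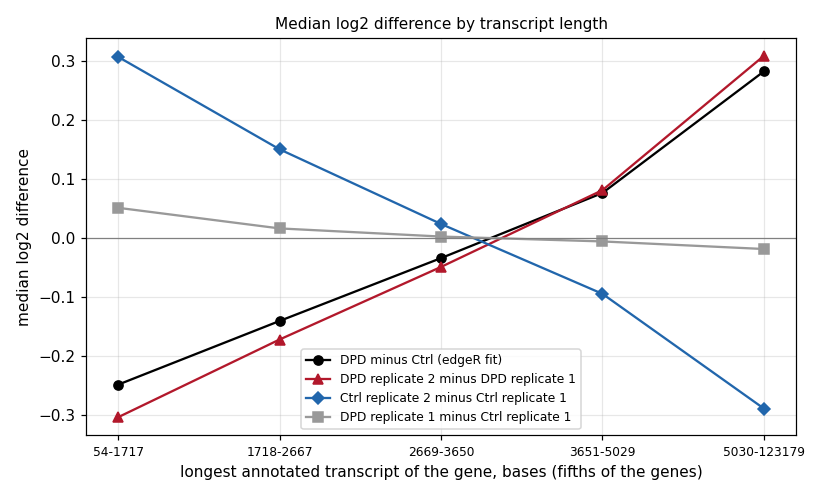
Median log2 difference (vertical axis) of the genes in each of 5 bins of longest annotated transcript length in bases (horizontal axis), for the fitted difference DPD minus Ctrl and for 3 pairs of single libraries. The line of the fitted difference climbs with length as the line between the DPD libraries does, the line between the Ctrl libraries descends, and the line of DPD replicate 1 minus Ctrl replicate 1 stays near 0.

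Interferon gamma response genes had the highest median among the 39 gene lists described. Interferon gamma binds its receptor on tumour, stromal and myeloid cells and switches on guanylate-binding proteins, immunity-related GTPases, chemokines and antigen presentation genes. Of 29 members tested, 27 had a positive fitted difference and the median log2 difference was 0.64, beside 0.01 over all genes tested. In 25 members both DPD libraries lay above both Ctrl libraries, a share of 86.2% beside 20.4% of all genes tested. In 1 member, Upp1, a uridine phosphorylase gene, both lay below, beside 17.6% of all genes. Upp1, Gbp7 and Irgm2 are named here after their values were seen. At an unadjusted p under 0.05, 17 members were higher (58.6%, beside 2.61% of all genes), and 0 passed after adjustment over all genes. Without Ctrl replicate 2 or without DPD replicate 2, 0 members were at an unadjusted p under 0.05. The list median was then 0.50 and 0.47, against 0.78 without DPD replicate 1 and 0.81 without Ctrl replicate 1.

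Promoters of 3 members are shown, picked by small p in DPD against Ctrl from the 6 found to hold both motifs through which interferons are known to act. A GAS-type motif (TTCNNNGAA) and an ISRE-type motif (GAAA, any 2 bases and GAAA again, or TTTC, any 2 bases and TTTC on the other strand) were searched on both strands of the 250 bases before each gene's start in RefSeq on GRCm38.p6. Each sequence runs 5′ to 3′ on the gene's strand, and capitals mark the matches. Gbp5 lies at chr3:142496684-142496933, Gbp7 at chr3:142530086-142530335 and Irgm2 at chr11:58214727-58214976, all on the plus strand.
Gbp5: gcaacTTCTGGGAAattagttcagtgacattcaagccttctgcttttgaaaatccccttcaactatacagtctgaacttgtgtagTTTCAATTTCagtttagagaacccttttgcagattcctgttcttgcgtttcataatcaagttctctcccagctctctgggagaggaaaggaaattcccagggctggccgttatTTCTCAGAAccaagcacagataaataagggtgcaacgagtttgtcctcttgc
Gbp7: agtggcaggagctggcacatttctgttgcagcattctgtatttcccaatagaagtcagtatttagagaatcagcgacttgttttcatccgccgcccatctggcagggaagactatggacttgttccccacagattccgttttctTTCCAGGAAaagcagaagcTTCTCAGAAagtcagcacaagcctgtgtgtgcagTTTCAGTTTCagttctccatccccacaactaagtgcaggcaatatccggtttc
Irgm2: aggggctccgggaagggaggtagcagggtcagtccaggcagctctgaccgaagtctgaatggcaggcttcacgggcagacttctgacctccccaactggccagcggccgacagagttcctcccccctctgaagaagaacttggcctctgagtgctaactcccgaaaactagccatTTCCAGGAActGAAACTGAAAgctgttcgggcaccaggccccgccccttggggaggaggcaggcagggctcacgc
Of the 29 members, 12 had no entry. The 17 members with an entry had 22 windows, of which 8 held a GAS-type match, 11 an ISRE-type match and 6 both. Over all 32851 windows the shares were 7.02%, 2.98% and 0.332%. A match is a run of letters and was not shown to be a bound site.

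Guanylate-binding proteins are large GTPases that attack the membranes of intracellular pathogens. Gbp4 (chromosome 5, 105115767 to 105139586) had 55.7 and 96.3 CPM in DPD tumours, against 41.6 and 29.1 CPM in Ctrl tumours. Both DPD libraries were above both Ctrl libraries, with the widest step made by DPD replicate 2. The log2 difference was 1.10 ± 0.36 (SE, n = 2 each, edgeR adjusted p = 0.725). Gbp2 (chromosome 3, 142620663 to 142638008) had 324 and 399.5 CPM in DPD tumours, against 242 and 207 CPM in Ctrl tumours, a log2 difference of 0.69 ± 0.24 without overlap (edgeR adjusted p = 0.725). Gbp5 (chromosome 3, 142496934 to 142522344), which also promotes inflammasome assembly, had 26.4 and 40.7 CPM in DPD tumours, against 19.9 and 13.9 CPM in Ctrl tumours. Gbp3 and Gbp7 followed the same order of libraries, with log2 differences of 0.83 and 1.33. Guanylate-binding protein genes are close copies of each other, so their single counts are uncertain to the extent that reads were shared among them.

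Other members of the interferon gamma list serve different tasks. Ido1 (chromosome 8, 24584133 to 24596952), which breaks down tryptophan and so restrains T cells, had 2.79 and 4.46 CPM in DPD tumours, against 1.67 and 1.18 CPM in Ctrl tumours. The groups did not overlap, and the log2 difference was 1.34 ± 0.47 (edgeR adjusted p = 0.725). Cd274 (chromosome 19, 29362107 to 29388095), the gene of PD-L1, had 27.8 and 34.9 CPM in DPD tumours, against 21.4 and 19.3 CPM in Ctrl tumours, with a log2 difference of 0.63 (95% interval 0.02 to 1.23) and no overlap. The T cell attracting chemokine Cxcl10 had 91.5 and 83.7 CPM in DPD tumours, against 56.8 and 64.0 CPM in Ctrl tumours. Its sister Cxcl9 had 79.3 and 77.6 CPM in DPD tumours, against 55.3 and 62.4 CPM in Ctrl tumours. Both chemokines were therefore higher in each DPD library than in each Ctrl library, at log2 differences of 0.54 and 0.42 whose intervals reach below 0. Ifng itself, the ligand, was at the edge of detection, with 0.276 and 1.22 CPM in DPD tumours, against 0.608 and 0.905 CPM in Ctrl tumours. Its groups overlapped and its log2 difference was -0.02 (95% interval -1.56 to 1.52).

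**Figure D2:**
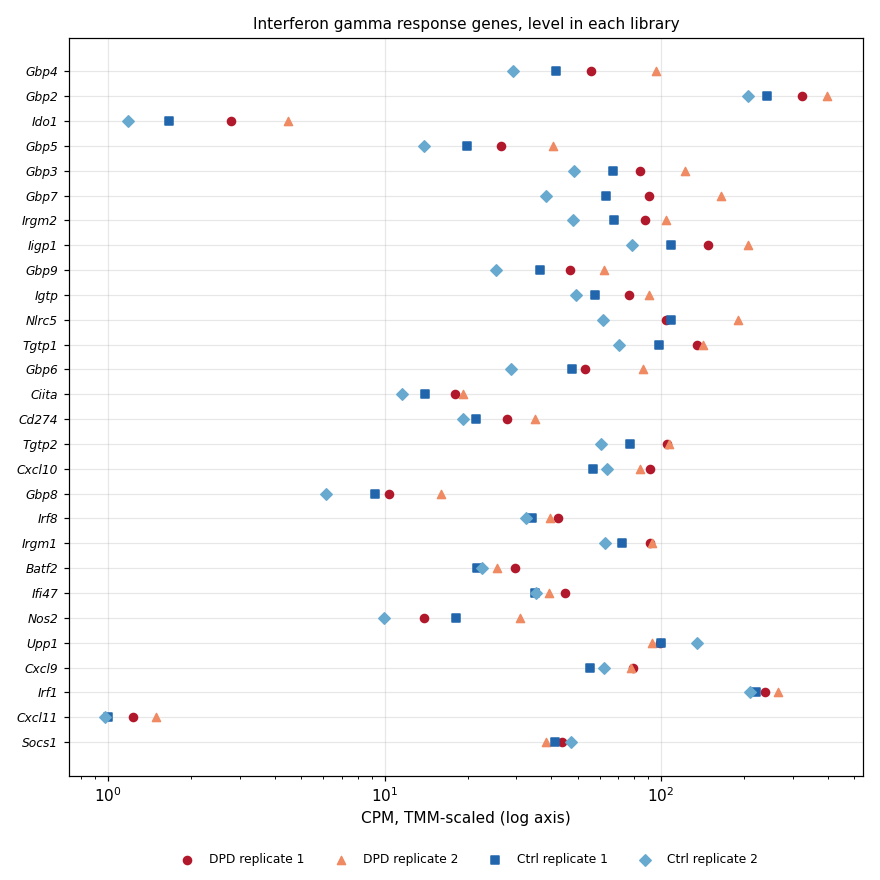
Level of 28 of the 29 tested interferon gamma response genes in CPM (log axis), 1 row per gene in order of p, with a symbol per DPD and Ctrl library. In 24 rows both DPD symbols lie to the right of both Ctrl symbols, and in most of the upper rows DPD replicate 2 is the highest and Ctrl replicate 2 the lowest.

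The step of the interferon gamma list was not equal in the 4 pairs of libraries. The list median was 0.36 for DPD replicate 1 minus Ctrl replicate 1, the pair with the flat length profile, with 26 of 29 members higher in the DPD library. It was 0.63 for DPD replicate 1 minus Ctrl replicate 2, 0.62 for DPD replicate 2 minus Ctrl replicate 1 and 0.95 for DPD replicate 2 minus Ctrl replicate 2. The libraries within a group differed by amounts of the same order: DPD replicate 2 minus DPD replicate 1 had a median of 0.27 and Ctrl replicate 2 minus Ctrl replicate 1 one of -0.35. With the length trend taken away the median was 0.66. In bulk tumour RNA, fewer or more cells of a type and less or more RNA per cell cannot be told apart.

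Type I interferon and antiviral genes, which sense and block viral RNA, had the next median. It was 0.44 over 30 members, of which 29 were positive, 23 did not overlap in the higher direction (76.7%, beside 20.4% of all genes) and 5 were at an unadjusted p under 0.05 (16.7%, beside 2.61%). Without DPD replicate 2 or without Ctrl replicate 2 the 5 became 0. The list median was 0.24 without Ctrl replicate 2 and 0.64 without Ctrl replicate 1. Zbp1, a sensor of Z-form nucleic acid, had 39.8 and 46.2 CPM in DPD tumours, against 30.8 and 28.5 CPM in Ctrl tumours. Oas3, which makes the messenger that activates RNase L, had 29.7 and 45.8 CPM in DPD tumours, against 23.8 and 17.3 CPM in Ctrl tumours. Stat2, a subunit of the factor that binds ISRE motifs, had 65.1 and 94.9 CPM in DPD tumours, against 59.6 and 45.2 CPM in Ctrl tumours. In all 3 genes every DPD library was above every Ctrl library, with log2 differences of 0.54, 0.88 and 0.61 (edgeR adjusted p = 0.725 each). None of the 30 members passed after adjustment over all genes.

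T cell and natural killer cell lists stood higher too, but not in every pair of libraries. B and plasma cell markers had a median of 0.07 over 9 tested of 16, with 5 positive and 4 negative. T cell markers had a median of 0.35 over 21 tested of 24, regulatory T cell and checkpoint genes 0.37 over 18, and cytotoxic and natural killer effectors 0.30 over 23. For DPD replicate 1 minus Ctrl replicate 1 the same medians were 0.03, 0.005 and 0.03. At an unadjusted p under 0.05 these lists held 0, 3 and 3 higher members (0%, 16.7% and 13.04%, beside 2.61% of all genes). The cytotoxic median was 0.63 with the length trend taken away, 0.58 without DPD replicate 1 and 0.09 without DPD replicate 2. The T cell median was 0.16 without Ctrl replicate 2 and 0.17 without DPD replicate 2. That of regulatory T cell and checkpoint genes was 0.22 without DPD replicate 2 and 0.61 without Ctrl replicate 1. Foxp3 (chromosome X, 7579676 to 7595243), the master factor of regulatory T cells, had 1.32 and 3.44 CPM in DPD tumours, against 0.706 and 0.859 CPM in Ctrl tumours, with a log2 difference of 1.60 ± 0.48 (edgeR adjusted p = 0.725). Its groups did not overlap, and DPD replicate 2 was far above the other 3 libraries. Fasl, the death ligand of killer cells, had 0.735 and 0.766 CPM in DPD tumours, against 0.118 and 0.279 CPM in Ctrl tumours. Klrk1, the activating receptor NKG2D, had 3.12 and 4.30 CPM in DPD tumours, against 2.35 and 1.67 CPM in Ctrl tumours. Cd8a, the coreceptor of killer T cells, overlapped, with 6.84 and 8.43 CPM in DPD tumours, against 8.14 and 4.48 CPM in Ctrl tumours. Prf1 and Gzmb, the pore protein and the protease of killer cells, had log2 differences of 0.59 and 0.57 with intervals that include 0.

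Myeloid markers divided by gene. Macrophage and monocyte markers had a median of 0.10 over 23, with 13 positive and 10 negative, and it was -0.11 without DPD replicate 1. Of the 23, 7 were higher without overlap (30.4%, beside 20.4% of all genes) and 1 was lower, the lipopolysaccharide receptor gene Cd14 (log2 difference -0.30, named after its value was seen). Itgam (CD11b) had 59.2 and 87.2 CPM in DPD tumours, against 54.8 and 37.7 CPM in Ctrl tumours. Mrc1, a mannose receptor of tissue macrophages, had 43.9 and 56.9 CPM in DPD tumours, against 35.6 and 31.9 CPM in Ctrl tumours. Both were higher without overlap, at log2 differences of 0.66 and 0.58. Neutrophil markers had a median of 0.26 over 15, with 13 positive, and 0.60 without Ctrl replicate 1. The gelatinase gene Mmp9 was 1 of the 2 negative members, at a log2 difference of -0.98. MHC class I and class II presentation lists had medians of -0.05 and -0.27, which were 0.10 and -0.06 with the length trend taken away. Without Ctrl replicate 2 they were 0.04 and -0.11, and without DPD replicate 2 they were 0.003 and -0.13. Among class II genes the transactivator Ciita was higher without overlap (log2 difference 0.54), while H2-Aa and Cd74, which it is known to induce, were lower without overlap (-0.35 and -0.31).

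**Figure D3:**
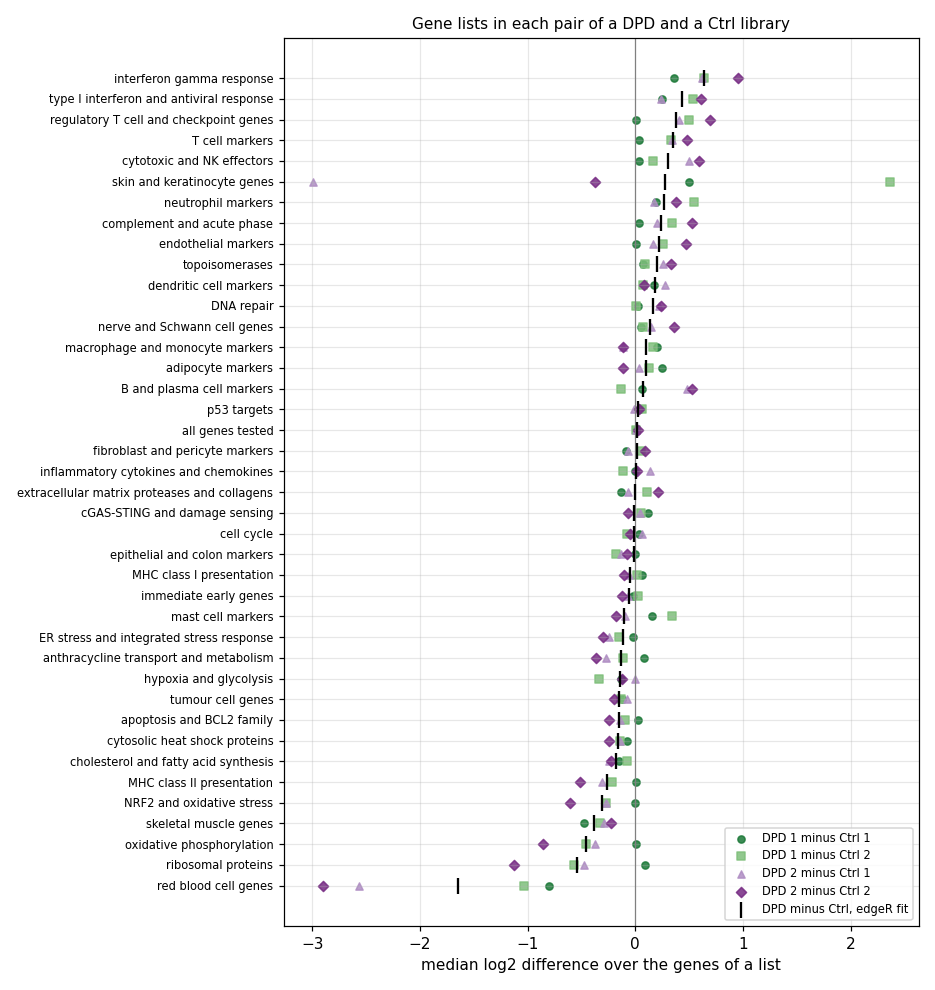
Median log2 difference (horizontal axis) of each gene list and of all genes tested, in each of the 4 pairs of a DPD and a Ctrl library (symbols) and in the edgeR fit (black bar). The interferon lists lie above 0 in all 4 pairs, the red blood cell list below 0 in all 4, and the ribosomal protein and oxidative phosphorylation lists lie at about 0 in DPD replicate 1 minus Ctrl replicate 1.

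Lists of genes that answer to the parent drug's action had small median differences. p53 targets had a median of 0.02 over 30 members, with 17 positive. At an unadjusted p under 0.05, 1 was higher (3.33%, beside 2.61% of all genes), namely Polk, a translesion polymerase gene (log2 difference 0.50). Relative to the Ctrl mean, the list's mean log2 CPM was 0.04 and -0.08 in DPD libraries and -0.001 and 0.02 in DOX libraries. The list was thus flat with the parent drug too, so its level with DPD cannot show whether drug was released. Whether p53 works in these tumour cells was not tested. Cdkn1a (chromosome 17, 29090979 to 29100722), the cell cycle inhibitor p21 and the best known p53 target, had 76.3 and 87.1 CPM in DPD tumours, against 95.1 and 98.4 CPM in Ctrl tumours. It was lower without overlap at a log2 difference of -0.24 (95% interval -0.68 to 0.20), and -0.25 with the 2 rows of that name summed. Mdm2, which degrades p53 and is induced by it, had 46.2 and 48.8 CPM in DPD tumours, against 44.2 and 49.6 CPM in Ctrl tumours, with overlapping groups and a 95% interval of the log2 difference from -0.38 to 0.42. Trp53 itself had a log2 difference of -0.18. The cell cycle list had a median of -0.01 over 36 members, and its members parted: Mki67 had a log2 difference of 0.73, with 286 and 454 CPM in DPD tumours, against 257 and 188 CPM in Ctrl tumours, while Ube2c had one of -0.50. DNA repair genes had a median of 0.16 over 32, 0.00 with the length trend taken away and -0.01 without DPD replicate 2. Of the 32, 12 were higher without overlap (37.5%, beside 20.4% of all genes) and 3 lower (9.4%, beside 17.6%). The apoptosis and BCL2 list had a median of -0.16 over 25. Of the 25, 8 were lower without overlap (32%) and 4 higher (16%).

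For drug targets and drug handling genes, only RNA was measured. The anthracycline transport and metabolism list had a median of -0.13 over 17 tested of 20, with 8 positive and 9 negative. It was 0.05 without Ctrl replicate 2. Of the 17, 2 were higher without overlap (11.8%, beside 20.4% of all genes) and 5 lower (29.4%, beside 17.6%). Top2a (chromosome 11, 98992947 to 99024199), the proliferation-linked target of doxorubicin, had 611 and 849 CPM in DPD tumours, against 596 and 524 CPM in Ctrl tumours. The groups did not overlap, and the 95% interval of its log2 difference of 0.38 ran from -0.07 to 0.84. Top2b, the isoform of resting cells, had a log2 difference of 0.27. Abcb1b, a rodent P-glycoprotein gene whose pump exports doxorubicin, had 69.5 and 87.7 CPM in DPD tumours, against 61.2 and 60.1 CPM in Ctrl tumours, without overlap (log2 difference 0.37, 95% interval -0.07 to 0.82). Its partner Abcb1a overlapped, at 4.98 and 8.74 CPM in DPD tumours, against 5.28 and 4.5 CPM in Ctrl tumours. Enzymes that reduce or recycle anthracyclines showed log2 differences of 0.63 (Xdh), -0.41 (Nqo1), -0.23 (Por) and 0.06 (Cbr1), and none passed.

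Ribosomal protein and oxidative phosphorylation genes, which have short transcripts, stood lower in the fit. Ribosomal protein genes had a median of -0.54 with 0 of 30 positive. Only 1 of the 30 was lower without overlap (3.33%, beside 17.6% of all genes), and DPD replicate 1 minus Ctrl replicate 1 had a median of 0.09. The summed level of the list was 43535 and 29927 CPM in DPD tumours, against 41061 and 63485 CPM in Ctrl tumours, so DPD replicate 2 was the lowest library and Ctrl replicate 2 the highest. Nuclear-encoded oxidative phosphorylation genes had a median of -0.45 with 1 of 30 positive, and 11 lower without overlap (36.7%). Taking the length trend away brought the medians to -0.27 and -0.23, and leaving out Ctrl replicate 2 brought both to -0.17. Without DPD replicate 2 they were -0.28 and -0.23. NRF2 and oxidative stress genes followed with a median of -0.31 over 25, which was -0.12 without Ctrl replicate 2 and -0.11 without DPD replicate 2.

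Most red blood cell genes were lower in both DPD libraries, by unequal amounts. The list had a median of -1.65 over 8 tested of 12, and 7 were lower without overlap (87.5%, beside 17.6% of all genes). The 1 other member tested was higher without overlap, at a log2 difference of 0.63. Hba-a1 (chromosome 11, 32283672 to 32284486), an alpha globin gene, had 37.0 and 7.80 CPM in DPD tumours, against 65.0 and 75.6 CPM in Ctrl tumours, and Hbb-bt (chromosome 7, 103812524 to 103813923), a beta globin gene, had 17.0 and 3.58 CPM in DPD tumours, against 32.6 and 40.8 CPM in Ctrl tumours. DPD replicate 2 held the lowest level of both, and the log2 differences were -1.65 ± 0.57 and -1.83 ± 0.57 (edgeR adjusted p = 0.725 each). Alas2, the haem synthesis enzyme of erythroid cells, had 0.790 and 0.550 CPM in DPD tumours, against 1.39 and 1.88 CPM in Ctrl tumours. Without DPD replicate 2 the list median was -0.95 and without DPD replicate 1 it was -3.13. Globin genes are near-identical copies, so the split between them is uncertain. How much blood remained in each piece of tumour was not measured.

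Among single genes Pakap had the smallest p. Pakap (chromosome 4, 57434475 to 57896984), the readthrough locus that spans the neighbouring genes Palm2 and Akap2, an A-kinase anchor, had 20.9 and 94.8 CPM in DPD tumours, against 1.41 and 1.07 CPM in Ctrl tumours. Its log2 difference was 5.54 ± 0.66 (edgeR adjusted p = 0.119), and both DPD libraries were far above both Ctrl libraries. The Ctrl libraries stood apart from the whole series in this gene: Pakap had from 1139 to 4827 counts in the other 10 libraries, and 72 and 46 counts in Ctrl. The contained genes, looked at after these values were seen, overlapped between the groups. Akap2 had 77.3 and 66.6 CPM in DPD tumours, against 99.3 and 64.9 CPM in Ctrl tumours, and Palm2 had 0.827 and 2.16 CPM in DPD tumours, against 1.3 and 0.743 CPM in Ctrl tumours. Reads in shared exons can be assigned to any of the 3 names, so the Pakap count is uncertain. Across the series, 287 genes (1.47%) had all 10 other libraries above both Ctrl libraries and 166 (0.85%) below.

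F13a1 (chromosome 13, 36867178 to 37050244), the coagulation factor XIII subunit that tissue macrophages also make, had Ctrl libraries that nearly coincided. It had 30.3 and 37.9 CPM in DPD tumours, against 15.2 and 15.4 CPM in Ctrl tumours. The log2 difference was 1.16 ± 0.25 (95% interval 0.60 to 1.71, edgeR adjusted p = 0.725). As with Pakap, all 10 other libraries lay above both Ctrl libraries, from 24.9 to 73.9 CPM. Elk4 (chromosome 1, 132007577 to 132026448), a partner of serum response factor, had 12.9 and 32.4 CPM in DPD tumours, against 4.10 and 5.52 CPM in Ctrl tumours. Its log2 difference of 2.23 ± 0.55 had an edgeR adjusted p of 0.725. DESeq2 gave an adjusted p of 0.0441 for it. All 10 other libraries again lay above both Ctrl libraries, from 6.64 to 32.4 CPM. Apol10b (chromosome 15, 77584154 to 77598542), of the apolipoprotein L family, had 12.4 and 15 CPM in DPD tumours, against 8.10 and 7.01 CPM in Ctrl tumours. The other higher genes of smallest p were Zc3h12d of the Regnase family, Ifi206 of the interferon-inducible p200 cluster, Gng3, Cpxm2, L3mbtl1 and the matrix gene Tnxb. Their log2 differences ran from 0.95 (Tnxb, 0.88 with the rows of that name summed) to 3.50 (Cpxm2). That of Cpxm2 rested on DPD replicate 2, with 0.588 and 5.19 CPM in DPD tumours, against 0.314 and 0.186 CPM in Ctrl tumours. In Zc3h12d and Gng3 too all 10 other libraries lay above both Ctrl libraries, unlike in Apol10b, Ifi206, Cpxm2, L3mbtl1 and Tnxb.

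**Figure D4:**
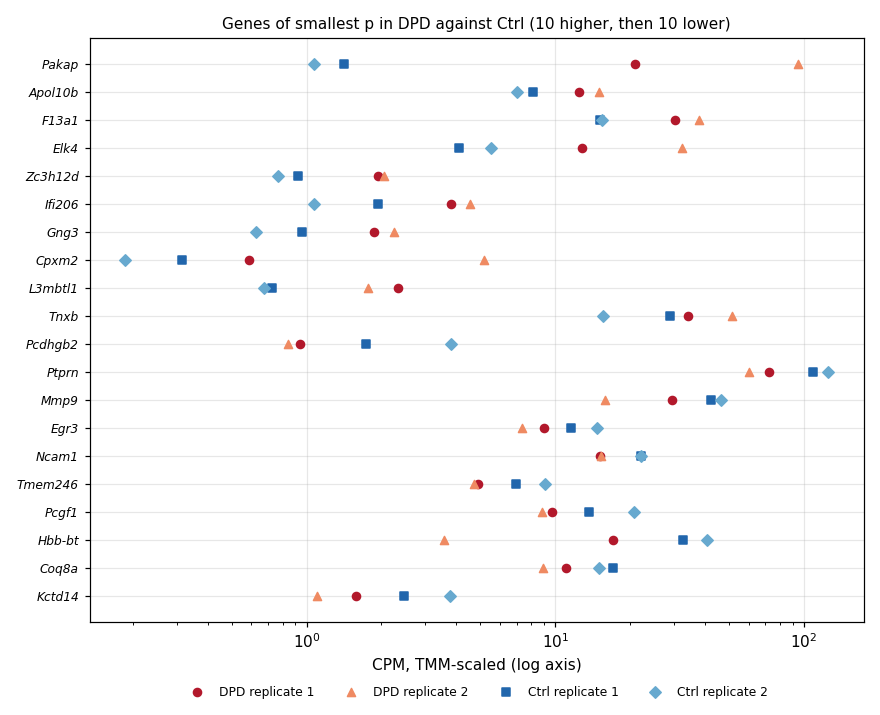
Level in CPM (log axis) in each DPD and Ctrl library of the 10 genes of smallest p with a higher level in DPD tumours and, under them, the 10 with a lower level. Pakap has the widest gap, the libraries of Ncam1 nearly coincide within each group, and in Cpxm2, Elk4 and Hbb-bt the DPD libraries are far apart.

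On the lower side, Ncam1 (chromosome 9, 49502129 to 49799393), a neural cell adhesion gene, had the tightest replicates, with 15.2 and 15.3 CPM in DPD tumours, against 22.1 and 22.2 CPM in Ctrl tumours. Its log2 difference was -0.54 ± 0.16 (edgeR adjusted p = 0.725). Mmp9 (chromosome 2, 164940326 to 164955850), which cleaves basement membrane collagen, had 29.4 and 15.8 CPM in DPD tumours, against 42.4 and 46.4 CPM in Ctrl tumours. Egr3 (chromosome 14, 70077317 to 70082613), an immediate early factor, had 9.0 and 7.33 CPM in DPD tumours, against 11.5 and 14.7 CPM in Ctrl tumours. Neither gene overlapped between the groups, which the rule for naming them required. Ptprn, a membrane protein of secretory granules, had 72.1 and 60.1 CPM in DPD tumours, against 109 and 125 CPM in Ctrl tumours. Pcdhgb2, Tmem246, Pcgf1, Coq8a and Kctd14 completed the 10, with log2 differences from -0.68 (Coq8a) to -1.63 (Pcdhgb2). Of these genes on the lower side, only Tmem246 had all 10 other libraries below both Ctrl libraries.

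The remaining lists described, of metabolism, stress, stroma and other tissue, had medians from -0.38 (skeletal muscle) to 0.27 (skin and keratinocyte). Hypoxia and glycolysis genes had a median of -0.15 over 26, and 12 were lower without overlap (46.2%, beside 17.6% of all genes). Among them the pH regulator Car9 had 18.1 and 19.8 CPM in DPD tumours, against 24.3 and 35.1 CPM in Ctrl tumours. Cholesterol and fatty acid synthesis genes had a median of -0.18 over 23, and 13 were lower without overlap (56.5%). Cytosolic heat shock proteins had a median of -0.16 over 19, and 10 were lower without overlap (52.6%). Hspa1b had 42.2 and 37.2 CPM in DPD tumours, against 74.4 and 52.3 CPM in Ctrl tumours. Tumour cell genes had a median of -0.15 over 14 tested of 16, and 8 were lower without overlap (57.1%). With the length trend taken away their median was -0.11. Endothelial markers had a median of 0.22, fibroblast and pericyte markers 0.01, complement and acute phase genes 0.23, inflammatory cytokines and chemokines 0.01 and cGAS-STING genes -0.01. With the length trend taken away the medians were -0.06 for heat shock proteins, 0.17 for inflammatory cytokines and chemokines and 0.19 for cGAS-STING genes. Without DPD replicate 2 that of inflammatory cytokines and chemokines was -0.21. Skeletal muscle genes had -0.38 and skin and keratinocyte genes 0.27, which was -2.73 without DPD replicate 1. The skin list differed within groups by more than any other, with a median of -3.62 for DPD replicate 2 minus DPD replicate 1 and -1.85 for Ctrl replicate 2 minus Ctrl replicate 1. Replicate 2 was the higher library in 2 of the 22 genes in DPD and in 1 in Ctrl. Colon epithelial markers were nearly absent from all 4 libraries: Cdx2 and Krt8 were at 0 CPM, Krt18 was at most 0.110 CPM and Epcam at most 0.604 CPM, while Cdh1 had 14.3 to 15.7 CPM.

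Whether the prodrug differed from its parent drug was asked by testing DPD against DOX at the same labelled dose, route and schedule. In edgeR 0 of 19525 genes (0%) passed, with a smallest adjusted p of 0.859, while 588 (3.01%) were higher and 249 (1.28%) lower at an unadjusted p under 0.05. DESeq2 passed 5 as higher and 3 as lower, among them Apol10b, Apol6, Serpina3f, Serpina3g and Kdm5b. This was 1 pair of compounds, so no further adjustment was made. Interferon gamma response genes had a median log2 difference of 0.77, beside -0.02 over all genes tested. Of 29 members, 28 were positive (beside 9286 of 19525 genes) and 19 were higher at an unadjusted p under 0.05 (beside 3.01%). This contrast reuses the DPD libraries, so a list picked as high in DPD against Ctrl is pulled above 0. Its sign is therefore no separate support. Relative to the Ctrl mean, the list's mean log2 CPM was -0.35 and 0.07 in DOX libraries and 0.15 and -0.15 in Ctrl libraries. DOX replicate 1 thus lay below both Ctrl libraries. Apol10b had 12.4 and 15 CPM in DPD tumours, against 5.43 and 6.40 CPM in DOX tumours (log2 difference 1.21, 95% interval 0.81 to 1.61). Serpina3g, a protease inhibitor gene induced in activated T cells, had 70.2 and 69.0 CPM in DPD tumours, against 36.3 and 43.5 CPM in DOX tumours. Klrk1 had 3.12 and 4.30 CPM in DPD tumours, against 1.21 and 1.54 CPM in DOX tumours. In these genes every DPD library was above every DOX library, which the rule for naming them required.

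T cell markers had a median of 0.85 in DPD minus DOX, beside -0.02 over all genes tested. Of the 21 tested, 21 were positive and 6 were higher at an unadjusted p under 0.05 (beside 3.01% of all genes). Relative to the Ctrl mean, the list's mean log2 CPM was 0.22 and 0.56 in DPD and -0.42 and -0.51 in DOX libraries. It was 0.22 and -0.22 in Ctrl libraries. Part of the difference thus lay in DOX libraries below Ctrl, and DPD replicate 1 was level with Ctrl replicate 1. Lower values in DPD than in DOX tumours were led by Kdm5b, a histone demethylase gene, with 9.57 and 10.1 CPM in DPD tumours, against 16.0 and 18.6 CPM in DOX tumours. The neutrophil chemokine Cxcl1 had 2.41 and 1.61 CPM in DPD tumours, against 4.87 and 10.002 CPM in DOX tumours, and Hbb-bt had 17.0 and 3.58 CPM in DPD tumours, against 55.1 and 67.4 CPM in DOX tumours. For the damage genes the intervals of DPD minus DOX were -0.51 to 0.37 for Cdkn1a and -0.38 to 0.42 for Mdm2. A p that misses the threshold does not show that the compounds act alike.

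**Figure D5:**
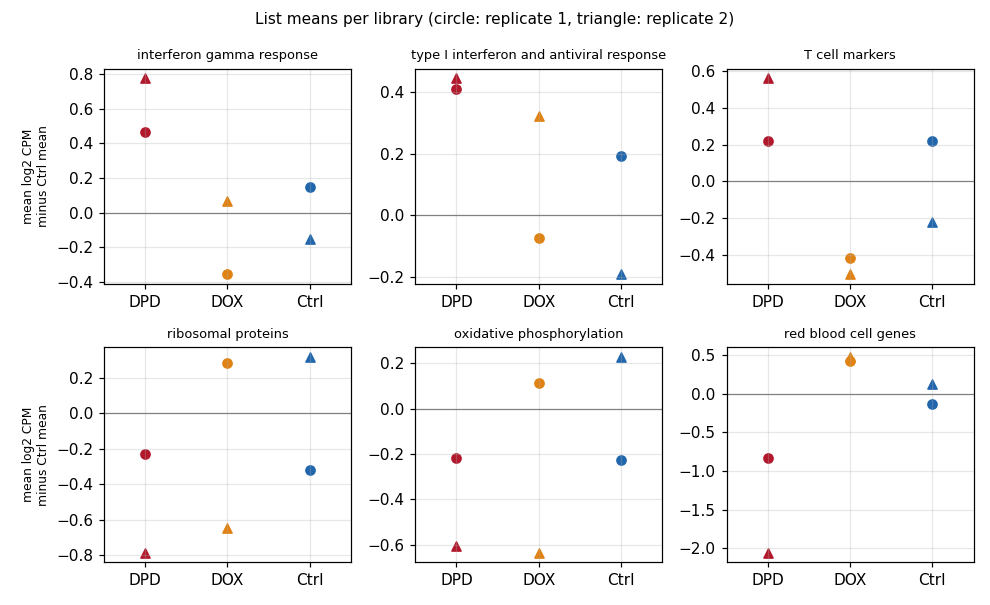
Mean log2 CPM of 6 gene lists in each library, set relative to the mean of the Ctrl libraries (vertical axis), for DPD, DOX and Ctrl (horizontal axis). For the interferon gamma, type I interferon and red blood cell lists the DPD points do not overlap those of the other groups. For ribosomal protein and oxidative phosphorylation genes the replicates of each group are far apart.

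Whether the prodrug's difference depended on the conjugate was asked by setting R+D minus RP against DPD minus Ctrl. Injection site differed as well, since the prodrug went beside the tumour in R+D and into the peritoneal cavity in DPD, so site and conjugate cannot be told apart. In edgeR 0 of 19525 genes (0%) passed, with a smallest adjusted p of 0.840. At an unadjusted p under 0.05, 197 genes (1.01%) had a contrast above 0 and 674 (3.45%) a contrast below 0. A value below 0 means that R+D minus RP was smaller than DPD minus Ctrl. It does not mean a lower level with the conjugate. The interferon gamma list had a median of -0.999 for this contrast. Of its 29 members, 17 were lower at an unadjusted p under 0.05 (beside 3.45% of all genes). Relative to the Ctrl mean, the list's mean log2 CPM was 0.89 and 0.97 in R+D libraries and 1.25 and 1.53 in RP libraries. In DPD libraries it was 0.47 and 0.77. Because the contrast subtracts DPD minus Ctrl, a list or gene picked as high there is pulled below 0. Its sign in such cases is no support for dependence on the conjugate. F13a1 had 29.9 and 40.02 CPM in R+D tumours and 48.2 and 73.9 CPM in RP tumours, beside 30.3 and 37.9 CPM in DPD tumours and 15.2 and 15.4 CPM in Ctrl tumours. The contrast was -1.96 ± 0.35 log2 units (edgeR adjusted p = 0.840). Cd274 had 31.6 and 36.2 CPM in R+D tumours and 46.0 and 70.9 CPM in RP tumours, with a contrast of -1.41. The prodrug libraries thus lay above PBS without the conjugate and below RP with it for both genes, and the edgeR test over all genes passed neither. DESeq2 passed 12 genes in this contrast, F13a1 among them (DESeq2 adjusted p = 0.000606) and Cd274 not.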

How the data were processed

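Per the labels' protocols, TRIzol was used on tumour tissue to obtain total RNA, and the library kit was NEBNext Ultra RNA. The submitters' processing notes name HISAT2 2.1.0, StringTie 1.3.5, DESeq2 and the build GRCm38. The tools' roles, annotation release and use of strand are not stated there, so overlapping and antisense genes cannot be told apart. The deposited values are whole-number counts per gene that the authors had not normalised, in a table of 43698 rows. The per-library files repeat the columns of that table.

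Groups came from the agent label, which numbers no replicates. Counts of all 12 libraries in 6 groups were fitted in R 4.3.3 with edgeR 4.0.16 (quasi-likelihood F test, TMM scaling, filterByExpr), which shared the spread over groups with 6 residual degrees of freedom. The biological coefficient of variation was 0.257. This left 19525 genes, and Benjamini-Hochberg adjustment ran over all of them with a threshold of 0.05. Levels are CPM, counts scaled by library size with TMM, and errors are standard errors (SE) of the fit. Contrasts were DPD minus Ctrl, DPD minus DOX, and R+D minus RP minus the difference of DPD and Ctrl. The fit was tested on simulated data.

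The 39 gene lists, the panel of 20 genes and the comparison were chosen with earlier results of these data known. Lists are described by counts and medians, with no set test. Genes were named if they passed, if their groups did not overlap and if they averaged 1 CPM or more. As fewer than 10 passed each way, the 10 of smallest p under these conditions are given, with up to 5 each way in the other contrasts. Named too are the panel and, for each list discussed, at most 5 members by p. Predicted genes and rows with a suffixed copy of a name were not named; Tnxb and Cdkn1a have such copies, and their values are those of the plain-named row. Single values of a few list members are not reported here. Coordinates and promoters are RefSeq's on GRCm38.p6, and lengths are the longest GENCODE transcript per symbol, found for 83.2% of the genes tested. As alternatives, RLE scaling, DESeq2 1.42.0, a fit with no low-count filter, limma-voom (limma 3.58.1), the compared groups alone, summed name copies and leaving out each library were tried. Taking the length trend away and counting list members with libraries left out were chosen after seeing the data.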

Additional observations from a re-analysis of the deposited data

How the results depend on the processing

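The count of 0 genes passing in DPD against Ctrl moved by few genes. Without the low-count filter 1 gene was called higher, and with DESeq2 2 were called higher (Pakap and Elk4) and 2 lower. Leaving out 1 library gave from 0 to 1 genes higher, the 1 being Pakap without either DPD library. In DPD against DOX, DESeq2 called 5 genes higher and 3 lower, the fit on the compared groups alone called 1 lower, and leaving out 1 library gave from 0 to 1 higher. In the contrast with and without the conjugate, DESeq2 called 12 genes, and leaving out 1 library gave from 0 to 1. The cause was not tested. Where a library of a group of 2 was left out, the lone library was assumed to vary like the other groups. At an unadjusted p under 0.05, the number higher in DPD against Ctrl was 1417 without Ctrl replicate 1, 1214 without DPD replicate 1, 177 without Ctrl replicate 2 and 111 without DPD replicate 2. The number lower was 938, 970, 71 and 105 in the same order. Leaving out a DOX library, outside the contrast, gave 1209 or 1206 higher and 792 or 810 lower.

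Log2 differences of 6 panel genes changed sign when libraries were left out: from -0.046 to 0.57 for Abcc1, from -0.094 to 0.77 for Cd8a, from -0.43 to 0.10 for Hmox1, from -0.045 to 0.15 for Cbr1, from -0.058 to 0.11 for Mdm2 and from -1.45 to 0.69 for Ifng. The medians of all 39 lists stayed within the spread between replicates under RLE scaling, no low-count filter, DESeq2, limma-voom and the compared groups alone. They moved by more in 16 lists without DPD replicate 1, 11 without DPD replicate 2, 10 without either Ctrl library, 11 with the length trend taken away and 1 with name copies summed. No paired analysis was possible because the labels number no replicates. With 2 libraries a group, differences near the spread between libraries were not detectable.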

Other observations

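A few genes outside the naming rule were looked at after their values were seen. Cahm, a non-coding RNA gene, had 0 counts in each DPD library and in the libraries of the other groups, against 52 and 67 counts in the Ctrl libraries, and it was the only gene with that pattern. In single libraries 0 counts allow up to 3 counts. In the edgeR fit its adjusted p for DPD against Ctrl was 0.725.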
